A study of Rattus norvegicus with 13 samples.

Results

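The cholesterol synthesis enzymes described here are the genes Hmgcs1, Idi1, Fdps, Fdft1, Sqle, Lss, Cyp51 and Dhcr7, measured in the livers of pregnant rats fed ethanol or a reduced energy supply. Every probe set of a rat expression array, other than the control probe sets, was taken if the array's annotation paired it with a single gene symbol and that symbol was a member's. The rule found 20 probe sets for 7 of the 8 genes, out of 7006 probe sets that named 4736 genes alone. No probe set named Hmgcs1 alone, so Hmgcs1 was not analysed here. Of the 20 probe sets, 19 were bright enough to be tested, which left 5244 tested probe sets on the whole array. Cyp51 had 5 probe sets, Fdft1 had 4, Fdps and Lss had 3 each, Idi1 and Dhcr7 had 2 each, and Sqle had 1.

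The series asked how ethanol taken in during gestation changes gene expression in the liver, and whether the energy supply bears on it. Time-mated female Sprague Dawley rats, an outbred stock, were fed 1 of 4 diets, and each of 13 RNA samples was hybridised to 1 single-colour Affymetrix array. EtOH-160 (n = 4) was undernourished, with 160 kcal per day for each kg of body weight to the power 0.75 and a daily ethanol dose of 12 g per kg. TEN-160 (n = 3) was undernourished at the same 160 kcal without ethanol. EtOH-220 (n = 3) had the same daily dose of 12 g per kg at 220 kcal, and TEN-220 (n = 3) had the diet without ethanol at 220 kcal. All groups were pregnant animals of the same stock. Neither the age of the animals nor the day of gestation is given in the sources used here, and the labels do not say whether a sample came from 1 animal or from a pool, so the p-values measure only the spread between these samples.

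Cholesterol is built from acetyl-CoA through the mevalonate pathway, and the liver is a main site of its synthesis. Mevalonate is turned into isopentenyl diphosphate, which Idi1 isomerises and Fdps joins into farnesyl diphosphate. Fdft1 couples a pair of these into squalene, Sqle oxidises squalene, Lss closes the ring to lanosterol, and Cyp51 and Dhcr7 act in the conversion of lanosterol to cholesterol. The transcription factor SREBP-2 is known to switch these genes on together when sterols in the endoplasmic reticulum run low. It acts through sterol regulatory elements that often lie beside binding sites for NF-Y and Sp1.

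Promoters are shown for 4 members, the 3 whose probe sets were called and that have an entry (Fdps, Cyp51 and Dhcr7) and Idi1, whose array-to-array deviations were most like those of Sqle. The sequences come from RefSeq on the build GRCr8 and run from 250 bases before to 50 bases after the annotated start, 5′ to 3′ on the gene's strand. Entries were found for 6 of the 8 genes; Fdft1 and Sqle had none. Capitals mark the matches to 4 motifs on either strand: the sterol element consensus TCACNCCAC, the sterol element TCACACGAG described in the Fdps promoter, the NF-Y box (its letters are CCAAT), and the GC box (its letters are GGGCGG). A match on the other strand appears as the reverse complement of these letters.
Fdps (chr2:176804767-176805066, minus strand): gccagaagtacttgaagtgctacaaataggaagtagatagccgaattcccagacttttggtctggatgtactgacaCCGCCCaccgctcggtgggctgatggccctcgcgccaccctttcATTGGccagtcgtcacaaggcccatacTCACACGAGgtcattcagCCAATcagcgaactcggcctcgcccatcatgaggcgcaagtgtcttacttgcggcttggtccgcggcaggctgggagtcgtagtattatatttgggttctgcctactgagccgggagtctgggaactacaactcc
Idi1 (chr17:66547475-66547774, minus strand): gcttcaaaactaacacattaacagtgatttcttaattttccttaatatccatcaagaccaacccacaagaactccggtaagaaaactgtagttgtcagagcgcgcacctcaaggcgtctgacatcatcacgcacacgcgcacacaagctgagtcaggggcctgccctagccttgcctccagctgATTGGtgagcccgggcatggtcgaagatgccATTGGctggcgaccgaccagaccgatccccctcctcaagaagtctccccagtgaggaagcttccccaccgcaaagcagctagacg
Cyp51 (chr4:30991443-30991742, plus strand): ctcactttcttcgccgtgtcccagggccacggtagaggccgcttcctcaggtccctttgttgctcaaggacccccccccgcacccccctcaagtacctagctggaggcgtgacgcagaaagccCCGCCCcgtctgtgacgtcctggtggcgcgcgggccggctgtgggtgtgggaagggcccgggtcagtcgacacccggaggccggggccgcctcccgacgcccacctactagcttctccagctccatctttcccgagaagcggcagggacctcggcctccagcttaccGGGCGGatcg
Dhcr7 (chr1:208444184-208444483, plus strand): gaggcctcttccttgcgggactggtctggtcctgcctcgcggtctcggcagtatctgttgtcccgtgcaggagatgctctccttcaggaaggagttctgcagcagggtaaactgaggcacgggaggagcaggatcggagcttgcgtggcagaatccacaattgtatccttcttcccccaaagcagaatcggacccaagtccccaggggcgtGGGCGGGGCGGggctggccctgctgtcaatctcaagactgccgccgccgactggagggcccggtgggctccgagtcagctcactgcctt
Fdps carried 1 match to TCACACGAG, a motif found in 0.123% of 33469 promoter windows of this length, between 2 NF-Y boxes and with 1 GC box further from the start. Because the motif was described in the Fdps promoter, a match there was foreseeable, and its low share elsewhere is no test. Idi1 carried 2 NF-Y boxes and no GC box. Cyp51 and Dhcr7 carried 2 GC boxes each and no NF-Y box, and the 2 of Dhcr7 overlapped. An NF-Y box was found in 37.5% of all windows and a GC box in 33.1%, so such matches are common. TCACNCCAC, found in 1.12% of all windows, was in none of the 6 members' windows. A match describes the letters in this window and is neither a binding site nor a cause of a measured level.

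The 3 arrays of TEN-160 differed from the remaining 10 in some measures, and every result with that group rests on these arrays. As they are also the only arrays of their diet, an effect of the diet and one of array processing cannot be told apart. On the principal component that held 30.1% of the variance, the TEN-160 arrays scored 30.5 to 41.6 and the others -13.8 to -2.63. This component was computed from the same log2 signals as the results below. The signal ratio of the BioDn-5 to the BioDn-3 control, which target a bacterial transcript added during the assay, lay between 0.422 and 0.497 in TEN-160 and between 0.132 and 0.21 in the remaining groups. The ratio of the 3′ to the 5′ probe set of Gapdh, a sign of RNA integrity, was 1.5 to 1.73 in EtOH-160, 1.03 to 1.24 in TEN-160, 1.04 to 1.47 in EtOH-220 and 1.52 to 2.32 in TEN-220. The same ratio for beta-actin did not set TEN-160 apart. It was 1.77 to 2.31 in EtOH-160, 1.91 to 2.96 in TEN-160, 1.93 to 2.18 in EtOH-220 and 1.97 to 3 in TEN-220. The tissue was liver by its markers: all 5 measured hepatocyte markers (Alb, Serpina1, Ttr, Fgb and Apoa1) were above background, with a summed signal of 105150 to 135695 in EtOH-160, 130908 to 168574 in TEN-160, 123608 to 143987 in EtOH-220 and 127728 to 139693 in TEN-220. Of 6 lists of markers of other liver and blood cells, the summed signals of EtOH-160 and TEN-160 overlapped in each list. For the 3 endothelial markers the sum lay between 372 and 701 in TEN-160 and between 374 and 495 in EtOH-220, both without overlap with TEN-220 at 207 to 280. The 2 cholangiocyte markers summed to 135 to 212 in EtOH-160 and 164 to 203 in TEN-160, both without overlap with TEN-220 at 100 to 112. The 3 Kupffer cell markers, at 5097 to 6160 in EtOH-160 and 6493 to 7609 in TEN-220, and the 2 erythroid markers, at 5638 to 10293 in EtOH-160 and 11090 to 15200 in EtOH-220, did not overlap either. The sums overlapped in the other pairs compared. None of these markers was at 0. The part of these differences in the results below was not tested. In bulk liver RNA, fewer cells of a type and less RNA per cell cannot be told apart.

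In undernourished rats, ethanol went with changes at 5 probe sets of 4 of the 7 genes and with no common direction among these 5. Sqle was about 1.92-fold higher in EtOH-160 than in TEN-160, and 1 of 5 Cyp51 probe sets and 1 of 2 Dhcr7 probe sets were higher too. A pair of the 3 Fdps probe sets was lower. No probe set of Idi1, Fdft1 or Lss passed the test. In all, 5 of 19 probe sets were called at an adjusted p under 0.05 in limma with Benjamini-Hochberg adjustment, against 22.2% of all tested probe sets. Of the 5, 3 were higher, against 10.1% of all, and 2 were lower, against 12.1% of all, so the members' share was close to that of the array as a whole. The median change of the 19 probe sets was 0.15 on the log2 scale, against -0.07 over all tested probe sets.

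**Figure D1:**
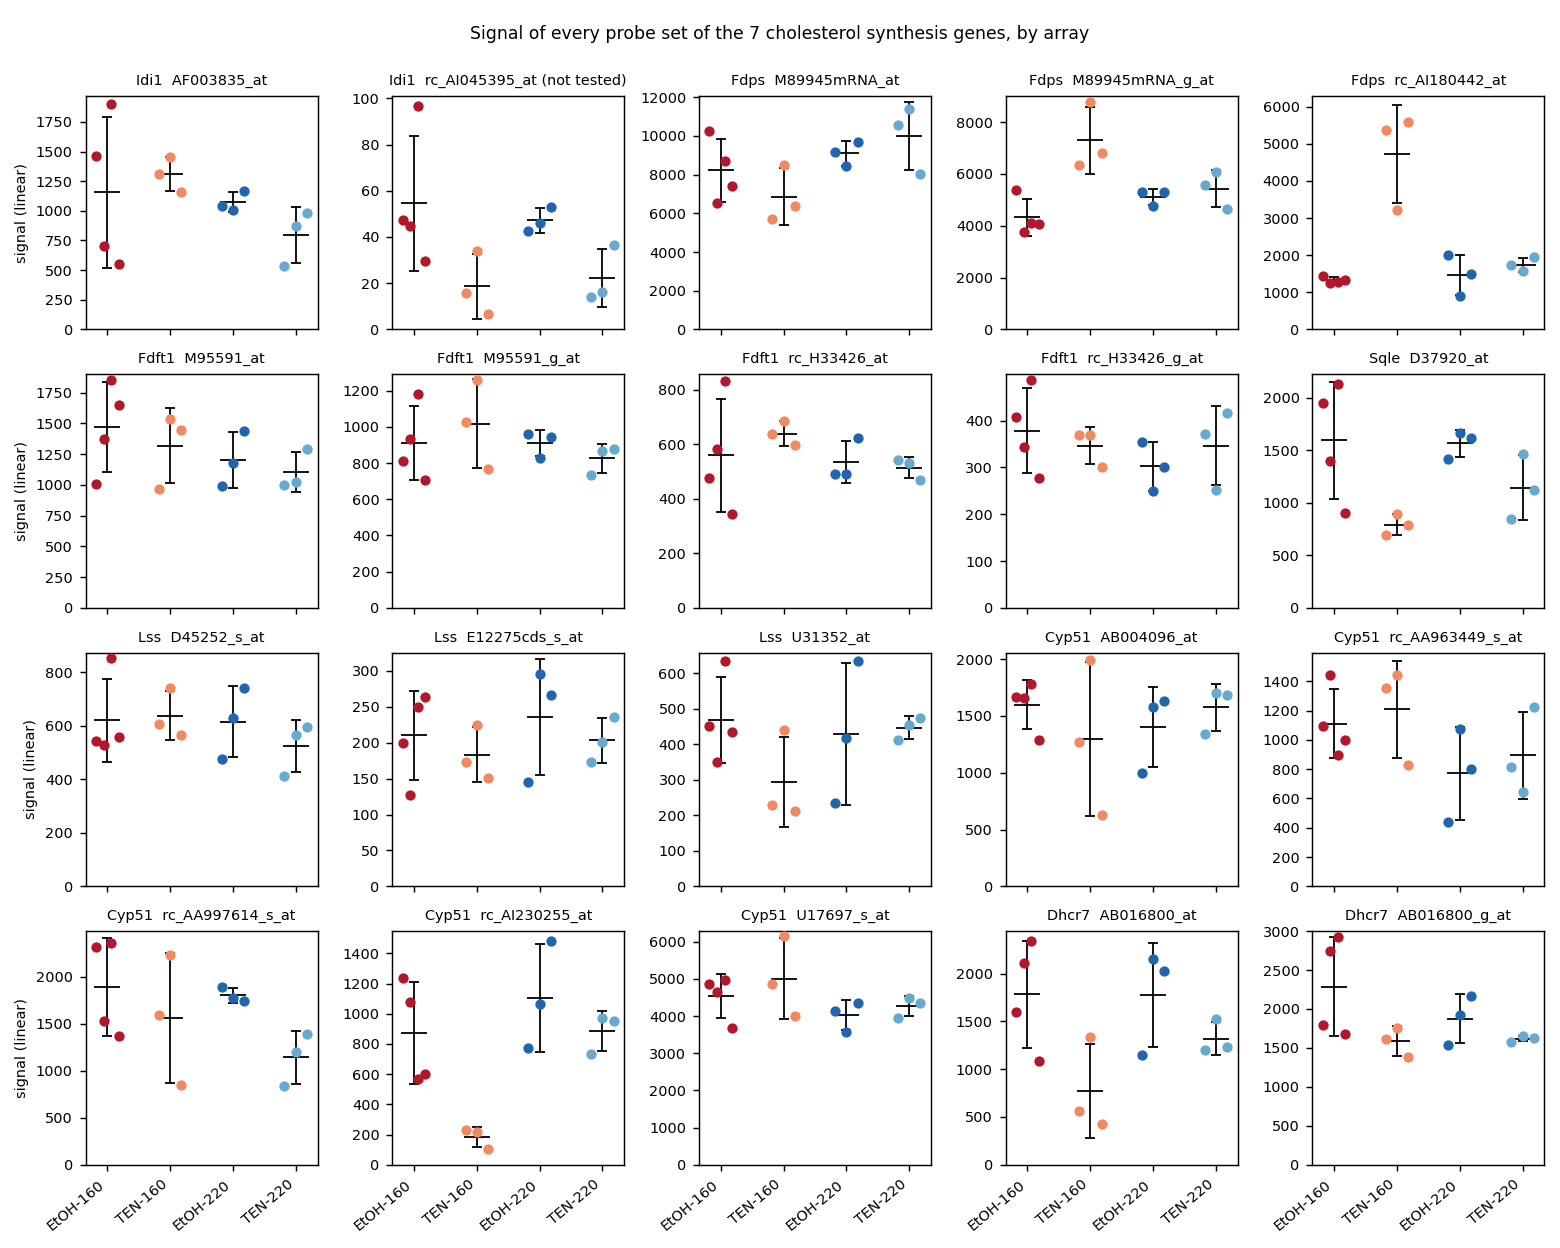
Signal (linear scale, after rescaling 1 array) of each of the 20 probe sets on each array, with points for arrays and bars for the group mean and SD (n = 4 in EtOH-160 and n = 3 in the other groups). The 3 TEN-160 arrays sit apart for Fdps rc_AI180442_at, at 3208 to 5596, for Fdps M89945mRNA_g_at, at 6335 to 8762, and for Cyp51 rc_AI230255_at, at 108 to 233. They do not sit apart for the other probe sets of Cyp51.

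Idi1 is the isomerase that makes dimethylallyl diphosphate, the primer of the isoprenoid chain. Its tested probe set AF003835_at read 1461, 702, 1902 and 553 in EtOH-160, and 1313, 1457 and 1162 in TEN-160. It read 1038, 1010 and 1170 in EtOH-220, and 537, 869 and 984 in TEN-220. A pair of EtOH-160 arrays lay above every TEN-160 and EtOH-220 array and the other pair below them, and the SD of 638 around a mean of 1155 was the widest of the 4 groups. The change for ethanol at 160 kcal was -0.36 (95% confidence interval -1.11 to 0.39), and that for ethanol at 220 kcal was 0.47 (-0.33 to 1.28). All 3 EtOH-220 arrays were above all 3 TEN-220 arrays, but the adjusted p in limma was 0.706. The other Idi1 probe set, rc_AI045395_at, was too dim to be tested, with 29.4 to 96.6 in EtOH-160, 6.5 to 34.1 in TEN-160, 42.6 to 53.1 in EtOH-220 and 13.9 to 36.5 in TEN-220, around the background signal of 34.6.

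Fdps, farnesyl diphosphate synthase, stands where the pathway branches towards sterols and towards prenylated proteins. Its probe sets disagreed in direction. The probe set rc_AI180442_at read 1444, 1255, 1289 and 1327 in EtOH-160, and 5369, 3208 and 5596 in TEN-160. It read 1995, 896 and 1506 in EtOH-220, and 1737, 1565 and 1940 in TEN-220. The TEN-160 arrays lay above the other 10 without overlap. The change for ethanol at 160 kcal was -1.79 (SE 0.245, adjusted p in limma 0.000407), which made EtOH-160 3.46-fold lower than TEN-160.

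The remaining Fdps probe sets were designed from 1 cDNA sequence and are therefore not independent of each other. M89945mRNA_g_at read 5382, 3754, 4097 and 4058 in EtOH-160, and 6335, 8762 and 6798 in TEN-160. The groups did not overlap, and the change was -0.76 (SE 0.16, adjusted p in limma 0.00484). The TEN-160 arrays also lay above those of the 220 kcal groups, whose highest reading was 6060, in TEN-220. M89945mRNA_at read 10266, 6526, 8690 and 7399 in EtOH-160, and 5700, 8513 and 6370 in TEN-160. Here the groups overlapped, and the change was 0.26 (95% confidence interval -0.13 to 0.66, adjusted p in limma 0.337), the other sign from its partner.

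Fdft1, squalene synthase, commits farnesyl diphosphate to sterols. None of its 4 probe sets passed the test for ethanol at 160 kcal, with changes from -0.27 for rc_H33426_at to 0.15 for M95591_at. M95591_at read 1011, 1376, 1856 and 1651 in EtOH-160, and 968, 1539 and 1448 in TEN-160, so the groups overlapped. Its 95% confidence interval, -0.33 to 0.64, did not reach a 2-fold change in either direction (1 on the log2 scale). For rc_H33426_at, which reads the same gene through another sequence, the interval was -0.77 to 0.24.

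Sqle, squalene epoxidase, catalyses a rate-limiting oxidation of the pathway. Its single probe set, D37920_at, read 1948, 1394, 2134 and 906 in EtOH-160, and 694, 890 and 791 in TEN-160. It read 1414, 1664 and 1617 in EtOH-220, and 844, 1464 and 1121 in TEN-220. All 4 EtOH-160 arrays were above all 3 TEN-160 arrays, although EtOH-160 replicate 4 cleared the highest of them by little. Sqle averaged 1595 ± 557 in EtOH-160 (SD, n = 4) and 791 ± 98.1 in TEN-160 (SD, n = 3). The change was 0.94 (SE 0.263, adjusted p in limma 0.0207). The call was lost without EtOH-160 replicate 1 (adjusted p in limma 0.0563), without EtOH-160 replicate 3 (0.0572), without TEN-160 replicate 1 (0.0739) and without TEN-160 replicate 3 (0.0545), while the change stayed between 0.78 and 0.95 in these fits.

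Lss, lanosterol synthase, folds the epoxide into the sterol ring. Its 3 probe sets had changes of -0.06, 0.16 and 0.72 for ethanol at 160 kcal, and none passed the test. The largest belonged to U31352_at, which read 453, 349, 635 and 435 in EtOH-160, and 230, 440 and 212 in TEN-160. TEN-160 replicate 2 lay within the EtOH-160 range, and the adjusted p in limma was 0.125. D45252_s_at read 545, 530, 852 and 556 in EtOH-160, and 606, 741 and 566 in TEN-160, with EtOH-160 replicate 3 well above its group.

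Cyp51, lanosterol demethylase, removes a methyl group from lanosterol and was read by 5 probe sets. Its probe set rc_AI230255_at read 1235, 1080, 566 and 602 in EtOH-160, and 233, 215 and 108 in TEN-160. It read 771, 1062 and 1480 in EtOH-220, and 735, 971 and 956 in TEN-220. The TEN-160 arrays lay below the other 10 without overlap. The change for ethanol at 160 kcal was 2.23 (SE 0.33, adjusted p in limma 0.000554), or 4.68-fold higher in EtOH-160.

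The other 4 Cyp51 probe sets did not pass the test and had changes from -0.13 to 0.44. U17697_s_at read 4854, 4640, 4980 and 3688 in EtOH-160, and 4852, 6162 and 3992 in TEN-160. Its 95% confidence interval of -0.47 to 0.22 lay wholly below that of rc_AI230255_at, 1.52 to 2.93. The TEN-160 arrays were therefore low at rc_AI230255_at and overlapped with the other groups at U17697_s_at.

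Dhcr7, dehydrocholesterol reductase, makes cholesterol itself from its last precursor. AB016800_at read 1596, 2114, 2338 and 1086 in EtOH-160, and 558, 1338 and 426 in TEN-160. It read 1148, 2151 and 2031 in EtOH-220, and 1204, 1523 and 1234 in TEN-220. TEN-160 replicate 2 lay inside the EtOH-160 range, while the other TEN-160 arrays lay below every other array. The change was 1.33 (SE 0.358, adjusted p in limma 0.018), and the call was lost without TEN-160 replicate 1 (adjusted p in limma 0.0692) or without TEN-160 replicate 3 (0.0898). Its partner from the same sequence, AB016800_g_at, read 1800, 2747, 2920 and 1680 in EtOH-160, and 1614, 1760 and 1384 in TEN-160. The groups overlapped, and the change was 0.49 (95% confidence interval 0.06 to 0.92, adjusted p in limma 0.0955).

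In normally fed rats, no cholesterol synthesis probe set was called for ethanol. The EtOH-220 and TEN-220 arrays gave 0 calls among the 19 in limma, with 1 at an unadjusted p under 0.05 and a lowest adjusted p of 0.472; over all tested probe sets 1 was called (0.0191%) and 542 had an unadjusted p under 0.05. The median change was 0.12 for the members and -4e-04 over all tested probe sets. The largest change belonged to Cyp51 rc_AA997614_s_at, which read 1892, 1772 and 1738 in EtOH-220, and 841, 1196 and 1393 in TEN-220. All 3 EtOH-220 arrays were higher, and the change of 0.69 had a 95% confidence interval of 0.01 to 1.36 and an adjusted p in limma of 0.472. For Sqle the change was 0.49 (95% confidence interval -0.12 to 1.09), for Dhcr7 AB016800_at 0.38 (-0.44 to 1.20), for Fdps rc_AI180442_at -0.32 (-0.88 to 0.24) and for Cyp51 rc_AI230255_at 0.28 (-0.48 to 1.03). The Sqle interval held the change seen at 160 kcal, so the 2 ethanol comparisons are not shown to differ for Sqle.

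**Figure D2:**
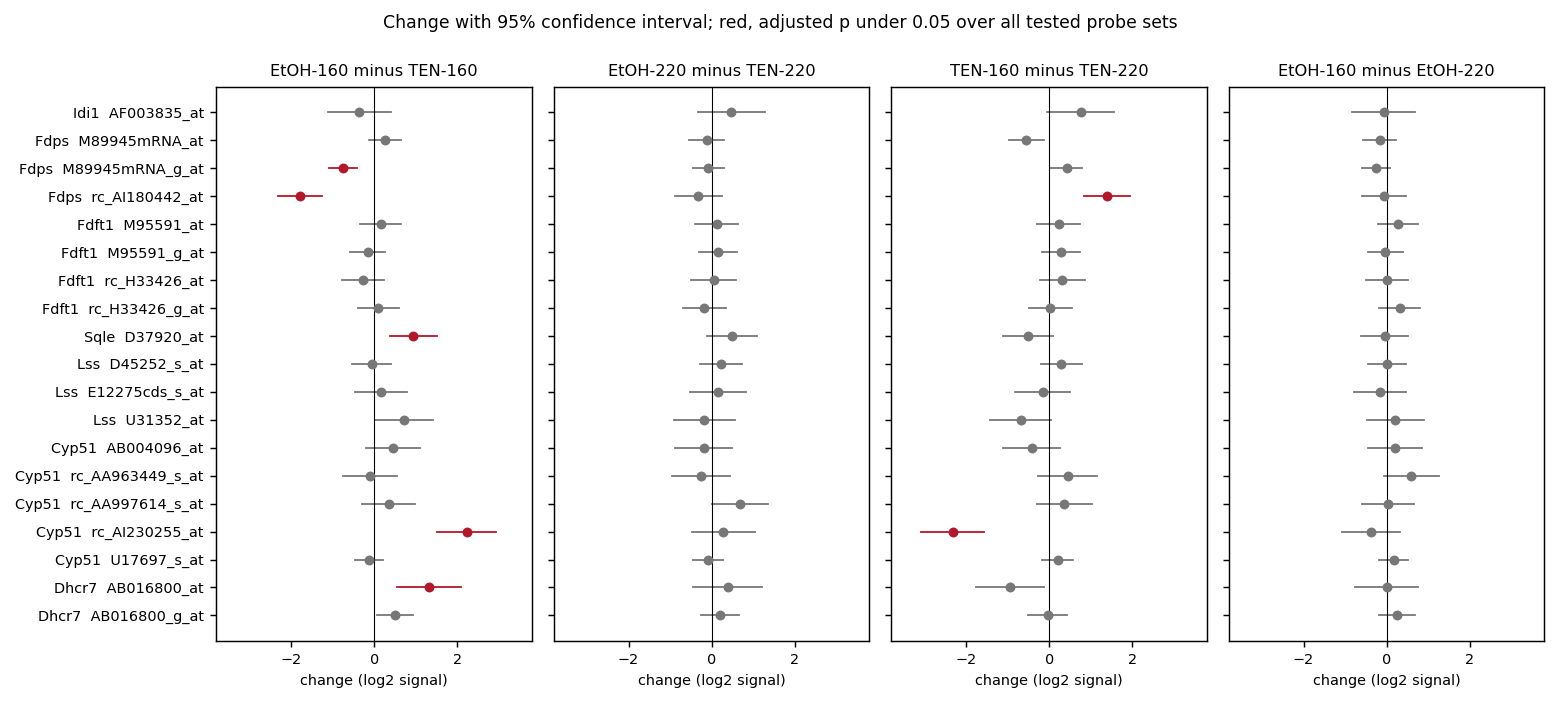
Change in log2 signal (x axis) of the 19 tested probe sets, with 95% confidence intervals, in 4 comparisons. Red marks an adjusted p under 0.05, which 5 probe sets reached for EtOH-160 minus TEN-160 and 2 for TEN-160 minus TEN-220; none reached it in the comparisons EtOH-220 minus TEN-220 and EtOH-160 minus EtOH-220, whose group means do not include TEN-160, although the error estimate is shared by all 13 arrays.

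A reduced energy supply without ethanol went with a change at 1 probe set of Fdps and 1 of Cyp51, in opposite directions. Of 19 probe sets, 2 were called for TEN-160 against TEN-220, compared with 18.3% of all tested probe sets. Of the pair, 1 was higher, against 9.12% of all, and 1 was lower, against 9.15% of all. Fdps rc_AI180442_at averaged 4724 ± 1320 in TEN-160 and 1747 ± 188 in TEN-220 (SD, n = 3 each), a change of 1.40 (SE 0.262, adjusted p in limma 0.00274). Cyp51 rc_AI230255_at averaged 185 ± 67.7 in TEN-160 and 887 ± 132 in TEN-220 (SD, n = 3 each), a change of -2.33 (SE 0.353, adjusted p in limma 0.000813). The median change was 0.21 for the members and 0.07 over all tested probe sets.

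The other probe sets of these genes were not called for the energy supply without ethanol. Fdps M89945mRNA_at read 5700, 8513 and 6370 in TEN-160, and 10584, 11394 and 8011 in TEN-220, a change of -0.55 (adjusted p in limma 0.0689). Its partner M89945mRNA_g_at had a change of 0.42 (adjusted p in limma 0.105), so the 3 Fdps probe sets again had both signs. Sqle had -0.50 (95% confidence interval -1.10 to 0.10) and Dhcr7 AB016800_at had -0.94 (-1.76 to -0.12, adjusted p in limma 0.106). Idi1 AF003835_at was higher on all 3 TEN-160 arrays than on any TEN-220 array, with a change of 0.76 and an adjusted p in limma of 0.179. Without TEN-160 replicate 2, 4 probe sets were called in place of 2. This comparison shares the TEN-160 arrays with that of ethanol at 160 kcal, so their values stand side by side and are not independent of each other.

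In ethanol-fed rats, the energy supply went with no called change. EtOH-160 against EtOH-220 gave 0 calls among the 19 probe sets in limma and 0 at an unadjusted p under 0.05, against 0.21% of all tested probe sets called. The median change was -7e-04 for the members and -0.03 over all tested probe sets. The values ran from -0.38 for Cyp51 rc_AI230255_at (95% confidence interval -1.08 to 0.33) to 0.60 for Cyp51 rc_AA963449_s_at (-0.06 to 1.25). Sqle averaged 1595 ± 557 in EtOH-160 (SD, n = 4) and 1565 ± 133 in EtOH-220 (SD, n = 3), a change of -0.04 with an interval of -0.61 to 0.52. Fdps M89945mRNA_g_at had -0.25 (-0.60 to 0.09) and Dhcr7 AB016800_at had -7e-04 (-0.77 to 0.77).

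Ethanol and low energy together, EtOH-160 against TEN-220, is the joint contrast; its group means do not include TEN-160, while the error estimate comes from all 13 arrays. It also gave 0 calls among the 19 probe sets in limma, with 2 at an unadjusted p under 0.05, against 2.19% of all tested probe sets called. The median change was 0.12 for the members, against -0.02 over all tested probe sets. The largest was Cyp51 rc_AA997614_s_at, at 2313, 1525, 2357 and 1366 in EtOH-160, and 841, 1196 and 1393 in TEN-220, with a change of 0.71 (95% confidence interval 0.09 to 1.34, adjusted p in limma 0.283). Dhcr7 AB016800_g_at was higher on all 4 EtOH-160 arrays than on the TEN-220 arrays, at 1582 to 1648 in TEN-220, with a change of 0.45 (0.02 to 0.89, adjusted p in limma 0.329). Sqle had 0.44 (-0.12 to 1.00). The pair with the largest changes against TEN-160 had small ones here: Fdps rc_AI180442_at had -0.39 (-0.92 to 0.13) and Cyp51 rc_AI230255_at had -0.10 (-0.81 to 0.61).

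The difference of the ethanol effect between the energy supplies was called for Fdps rc_AI180442_at and Cyp51 rc_AI230255_at. In all 2 of 19 probe sets passed this interaction test in limma, against 7.7% of all tested probe sets. Of the pair, 1 was higher, against 3.7% of all, and 1 was lower, against 4% of all. The difference was -1.47 for Fdps rc_AI180442_at (SE 0.358, adjusted p in limma 0.0257) and 1.95 for Cyp51 rc_AI230255_at (SE 0.483, adjusted p in limma 0.0272). Both calls were lost without TEN-160 replicate 3, without EtOH-220 replicate 1, and without TEN-220 replicate 1 or 2. The Fdps call alone was lost without TEN-160 replicate 1 or EtOH-220 replicate 3, and the Cyp51 call alone without TEN-220 replicate 3. For Sqle the difference was 0.46 (95% confidence interval -0.37 to 1.28) and for Dhcr7 AB016800_at it was 0.94 (-0.18 to 2.07), neither of which passed the test. The median was 0.04 for the members and -0.07 over all tested probe sets.

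Probe sets of the same gene went opposite ways in some comparisons. A gene with more probe sets is more likely to have both signs and a wide distance between its changes. The 5 genes had 2 to 5 tested probe sets each, and the array-wide values were not matched for that number. The values below therefore do not show more disagreement among the 5 genes than elsewhere. Of the 5 genes with several tested probe sets, 4 had changes of both signs for ethanol at 160 kcal, against 43.9% of 882 such genes on the array, and 3 had both signs for ethanol at 220 kcal, against 46.4%. For the energy supply, 3 of the 5 had both signs without ethanol (44.9% of all such genes) and 4 with ethanol (39.8%). For ethanol and low energy together 1 of the 5 had both signs (34.5%), and in the interaction 4 did (45.1%). The distance between a gene's lowest and highest change had a median of 0.83 among the 5 genes for ethanol at 160 kcal and of 0.97 for energy without ethanol, against 0.55 over all such genes in both. For ethanol at 220 kcal, the median distance was 0.32 among the 5 genes and 0.31 over all, and for ethanol and low energy together it was 0.23 in both. The 3 Fdps probe sets had 1 sign in the pairwise comparisons whose group means do not include TEN-160, and both signs in the others.

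**Figure D3:**
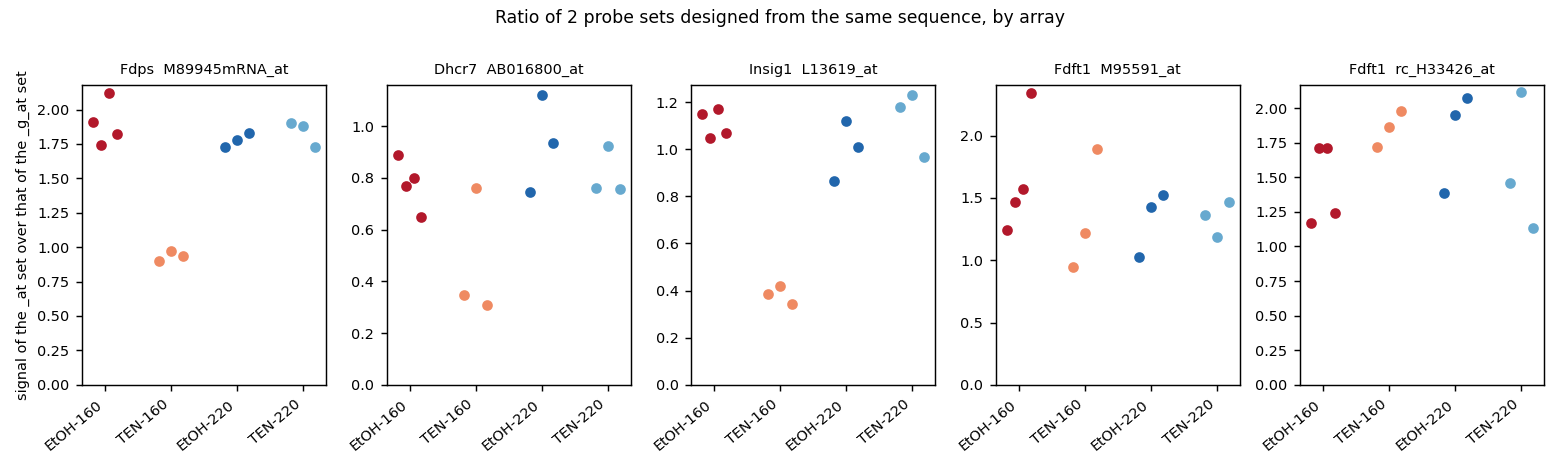
Ratio of the signal of the probe set ending in _at to that of its partner ending in _g_at, designed from the same sequence (y axis, linear scale), on each array of the 4 groups. For Fdps the ratio lay between 0.9 and 0.972 in TEN-160 and between 1.73 and 2.12 in the remaining groups.

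The ratio of partner probe sets on 1 array does not depend on how the arrays were scaled. For Fdps it was 1.91, 1.74, 2.12 and 1.82 in EtOH-160, and 0.9, 0.972 and 0.937 in TEN-160. It was 1.73 to 1.83 in EtOH-220 and 1.73 to 1.9 in TEN-220, so the TEN-160 arrays alone read the 2 probe sets of 1 sequence at near equal signal. For Dhcr7 the ratio was 0.647 to 0.887 in EtOH-160, and 0.346, 0.761 and 0.308 in TEN-160, so TEN-160 replicate 2 lay with the other groups. Insig1, an endoplasmic reticulum protein that holds back SREBP processing, is no member but had such a pair too, with a ratio of 1.05 to 1.17 in EtOH-160 and 0.342 to 0.418 in TEN-160. Of the 2 pairs of Fdft1, that of M95591_at overlapped between all groups. That of rc_H33426_at was 1.17 to 1.71 in EtOH-160 and 1.72 to 1.98 in TEN-160, a narrow gap, and overlapped in the other comparisons. Such partners are meant to read the same transcript, and over 524 pairs on the array the changes of the partners differed by over 1 on the log2 scale in 14.5% for ethanol at 160 kcal and 13.9% for energy without ethanol. The share was 3.24% for ethanol at 220 kcal, 2.29% for energy with ethanol and 1.72% for ethanol and low energy together, the 3 comparisons whose group means do not include TEN-160.

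**Figure D4:**
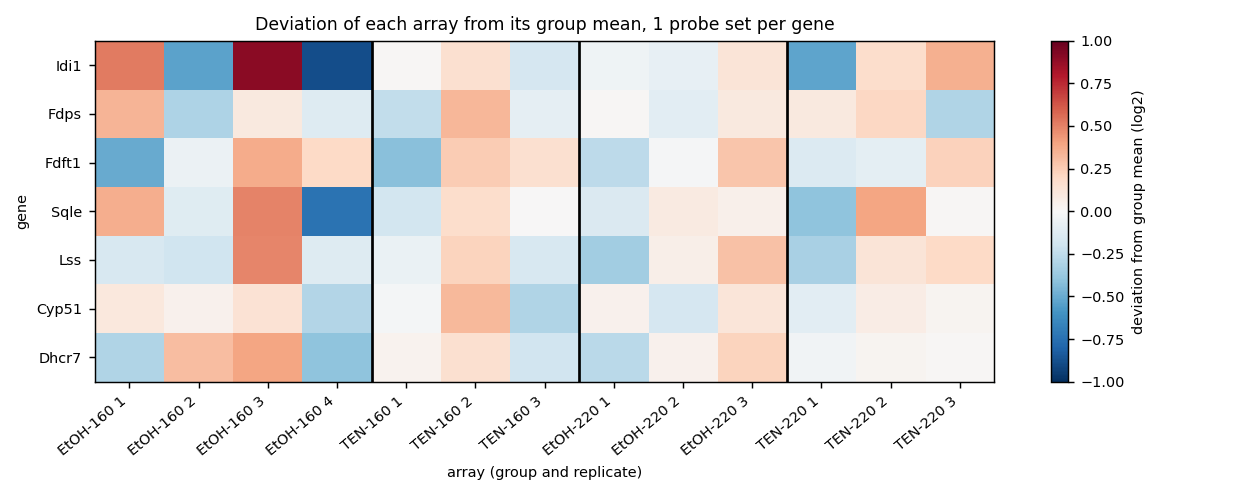
Deviation of each array's log2 signal from its group mean (colour, red above and blue below) for the 7 genes, each by its brightest tested probe set, on the 13 arrays in group order. EtOH-160 replicate 3, TEN-160 replicate 2 and EtOH-220 replicate 3 were above their group mean for 7 of 7 genes at these probe sets.

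Within the groups, most pairs of the enzymes tended to be high or low on the same arrays. Each gene was taken by its brightest tested probe set, and the mean of its group was subtracted, so that differences between diets played no part. For Fdps, Cyp51 and Dhcr7 this left out the called probe sets, which can deviate otherwise. Cyp51 rc_AI230255_at was lowest of its group on EtOH-160 replicate 3 (566). Fdps rc_AI180442_at was lowest of its group on TEN-160 replicate 2 (3208). Over the 13 arrays, the correlation between genes had a median of 0.49 over 21 pairs, of which 19 were positive (90.5%), against a median of 0.02 and 51.7% positive over all pairs of tested probe sets. The highest was 0.88, for Idi1 with Sqle, followed by 0.66 for Idi1 with Lss and for Fdft1 with Lss. The lowest was -0.07, for Fdps with Fdft1. Fdft1 also had values near 0 with Idi1 (0.08), Sqle (0.04) and Cyp51 (0.03), as did Fdps with Dhcr7 (-0.05). All pairs share the same 13 arrays and their scaling, so these values are a description. Leaving out 1 array at a time gave medians from 0.38 without EtOH-160 replicate 4 to 0.56 without EtOH-160 replicate 2. The positive pairs ranged from 16 of 21 without EtOH-160 replicate 3 to 21 of 21 without EtOH-160 replicate 1.

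The deviations were widest in EtOH-160. There the mean deviation of the 7 genes was 0.05 on replicate 1, -0.13 on replicate 2, 0.41 on replicate 3 and -0.34 on replicate 4. Replicate 3 was above the group mean for 7 of 7 genes and replicate 4 for 1 of 7, each gene by its brightest tested probe set. The median deviation of all tested probe sets was 0.0012 on replicate 3 and 0.02 on replicate 4. In TEN-160 the mean deviations were -0.13, 0.23 and -0.11, in EtOH-220 they were -0.14, -0.03 and 0.17, and in TEN-220 they were -0.20, 0.13 and 0.075.

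Among probe sets of other genes, 6 were taken as most like the members' mean profile over the 13 arrays. The mean profile averaged the 7 genes after each was scaled to an SD of 1. The highest correlations were 0.89 for Msmo1 rc_AI172293_at, 0.855 for Acat2 rc_AA859980_at and 0.84 for Msmo1 E12625cds_at. Msmo1 removes methyl groups from sterol intermediates and Acat2 joins acetyl-CoA units at the start of the pathway. Ephx2, an epoxide hydrolase, followed with 0.79, Anpep, an aminopeptidase, with 0.76 and Gsk3b, a protein kinase, with 0.75. Msmo1 rc_AI172293_at read 4820, 3398, 5954 and 2551 in EtOH-160, 3031, 4552 and 2799 in TEN-160, 4381, 3721 and 4671 in EtOH-220, and 2635, 3371 and 3432 in TEN-220. Like Idi1 and Sqle, it was highest on EtOH-160 replicate 3 and low on replicate 4. Of these 6 probe sets, 3 stayed among the 6 most alike when EtOH-160 replicate 3 or TEN-160 replicate 2 was left out.

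Other enzymes of the pathway were called in 3 of the 6 comparisons. The list held 12 genes, of which 7 were tested through 10 probe sets. For ethanol at 160 kcal, 3 of the 10 were called, all higher, against 22.2% of all tested probe sets called and 10.1% called higher: Acat2 rc_AA859980_g_at by 1.20 (adjusted p in limma 0.00223), Mvk rc_AA924198_s_at, for mevalonate kinase, by 1.31 (0.00413), and Mvd, for mevalonate diphosphate decarboxylase, by 0.80 (0.0374). Acat2 rc_AA859980_at, the partner of the called Acat2 probe set from the same sequence, was not called, with a change of 0.01. It read 563, 860 and 708 in TEN-160, where the called partner read 834, 672 and 955. In EtOH-160 it read 540 to 1180, and the called partner 1468 to 2823. Mvk also had another probe set that was not called, with a change of 0.39. Both probe sets of Msmo1 were uncalled, with 0.23 and 0.45. Nsdhl, another enzyme of the list, went the other way and was not called, with -0.36 (adjusted p in limma 0.177), the lowest change of the 10. For energy without ethanol the same 3 probe sets were called, all lower, with -0.98, -1.15 and -1.10, against 18.3% of all tested probe sets called and 9.15% called lower. The median over the list was 0.31 for ethanol at 160 kcal and -0.07 for energy without ethanol, beside -0.07 and 0.07 over all tested probe sets. For ethanol and low energy together, none of the 10 was called. Nsdhl came closest, with -0.62 (adjusted p in limma 0.11). It read 1315 to 2374 in EtOH-160 and 2685 to 2976 in TEN-220, without overlap.

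Genes of sterol sensing were represented by 3 of 7 genes (Insig1, Srebf1 and Mbtps2), in 4 probe sets. Srebf2, the gene of SREBP-2, was not among them. For ethanol at 160 kcal, 2 of the 4 were called, both higher, against 22.2% of all tested probe sets called and 10.1% called higher. Insig1 L13619_at read 5442, 5548, 4636 and 7152 in EtOH-160, and 2834, 1756 and 1820 in TEN-160, a change of 1.43 (SE 0.203, adjusted p in limma 0.000439). Its partner L13619_g_at had -0.11 (95% confidence interval -0.54 to 0.32). Srebf1, which encodes SREBP-1, read 531, 948, 629 and 1116 in EtOH-160, and 361, 406 and 265 in TEN-160, a change of 1.19 (SE 0.292, adjusted p in limma 0.0108). Mbtps2 went the other way and was not called, with -0.71 (95% confidence interval -1.46 to 0.05, adjusted p in limma 0.169). For energy without ethanol the same 2 probe sets were called lower, by -1.83 for Insig1 L13619_at and -1.54 for Srebf1. Over all tested probe sets, 18.3% were called there and 9.15% were called lower. In the interaction, 1 of the 10 probe sets of other pathway enzymes was called, Acat2 rc_AA859980_g_at (1.26). Of the 4 sterol sensing probe sets, Insig1 L13619_at (1.73) was called. Over all tested probe sets, 7.7% were called in the interaction and 3.7% were called higher.

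Branches off the pathway were called in shares to be read against the 22.2% of all tested probe sets called for ethanol at 160 kcal and the 18.3% for energy without ethanol. None of the 3 probe sets of the isoprenoid branch, which makes the groups attached to proteins, was called, and Fntb and Fnta had changes from -0.06 to 0.42 for ethanol at 160 kcal. Of 4 probe sets of the ketone branch, which also starts from acetyl-CoA, Bdh1, an enzyme of ketone body interconversion, was called with -1.17 for ethanol at 160 kcal and 1.31 for energy without ethanol. It read 853, 1210, 1275 and 601 in EtOH-160, and 1614, 2363 and 2477 in TEN-160. Of 10 probe sets for esterification, transport and conversion of cholesterol, Nr1h2, a sterol-sensing nuclear receptor, was called with 0.63 for ethanol at 160 kcal and -0.71 for energy without ethanol. Cyp27a1, an enzyme of bile acid synthesis, was called at 1 of 2 probe sets for ethanol at 160 kcal (0.52), and Scarb1, a lipoprotein receptor, at 1 of 3 for energy without ethanol (-0.79). No probe set of these 5 lists was called for ethanol at 220 kcal, for energy with ethanol, or for ethanol and low energy together. Over all tested probe sets the shares called were 0.0191%, 0.21% and 2.19%, so few calls or none would be seen in lists of this size.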

How the data were processed

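The deposited values were intensity values on a linear scale, 1 column per array, made by the authors with MAS5, per the submitters' processing notes, which name no version. On 12 arrays the signal had a 2%-trimmed mean of 501, and on TEN-220 replicate 1 of 133, so that array was multiplied by 3.76 so that all 13 had the same trimmed mean. Signals under the 10th percentile of all signals (9.5) were set to it, and log2 was taken. Without the 59 control probe sets, 8740 remained, and the dimmest 40% by mean log2 signal were not tested. Of the 5244 tested, 4308 named 1 gene, 245 several and 691 none, by the platform annotation. Background was the 95th percentile of the median signals of 19 control probe sets for bacterial and yeast sequences (34.6).

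Group means were fitted to all 13 arrays in R 4.3.3 with limma 3.58.1, by lmFit and by eBayes with trend. Tests were two-sided, with Benjamini-Hochberg adjustment over the 5244 probe sets within each of 6 comparisons, and called at an adjusted p under 0.05. A change is a difference of mean log2 signal, and its SE is the standard error from this fit. Precision is limited by the number of arrays: over all tested probe sets the median SE was 0.243 to 0.26 for a pairwise change. The procedure was tested on simulated data. The alternatives were other normalizations, floors, filters, variance models, array weights, a fit to only the groups compared, a replicate block, and leaving out arrays; a fit without the TEN-160 arrays was added after seeing the data. All probe sets of the members are named; of the other lists, those called and the closest to it; and the 6 most alike in profile. The members and the lists were chosen with earlier results of these data known. Promoter motifs were searched, and plots drawn with matplotlib 3.10.9, in Python 3.11.15.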

Additional observations from a re-analysis of the deposited data

Results flagged for a closer look

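Lss D45252_s_at in EtOH-160 had 1 array far from the others: on the log2 scale, the gap between replicate 3 (signal 852) and the nearest array (signal 556), divided by the range of the group, was 0.896, above Dixon's 95% critical value for 4 arrays. Chance alone gives such a gap in about 1 in 20 groups, and 20 probe sets were examined. The ethanol effect differed between the energy supplies for Fdps rc_AI180442_at, by -1.47 on the log2 scale, and for Cyp51 rc_AI230255_at, by 1.95, as the interaction term in limma showed. Both rest on the TEN-160 arrays, whose control ratios stood apart; the part of that difference was not tested.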

How the results depend on the processing

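Of 214 recomputed changes of called probe sets of the 7 genes, 24 lost their call and 0 changed sign. Altering only the filter, the variance trend or the arrays of other groups leaves a pairwise change as it was. In such fits the sign was fixed in advance. The count of their called probe sets was 0 for ethanol at 220 kcal, energy with ethanol, and both together in every alternative run. For ethanol at 160 kcal, 5 probe sets of the 7 genes were called, 2 with the values as deposited and 3 to 6 with 1 array left out. For energy without ethanol, 2 were called, 4 with array weights, and 2 to 4 with 1 array left out. In the interaction, 2 were called, 0 with no filter or with the values as deposited, and 0 to 2 with 1 array left out. With the values as deposited, TEN-220 replicate 1 is unscaled, which widens the spread of the fit. Over all probe sets, the values as deposited gave 107 calls in place of 1164 for ethanol at 160 kcal, 58 in place of 1 at 220 kcal, 346 in place of 958 for energy without ethanol, 17 in place of 11 with ethanol, and 65 in place of 404 in the interaction. For ethanol at 220 kcal (1 call), 5 were called with quantile normalization or without the TEN-160 arrays, 2 with median-centred arrays or a stricter filter on dim probe sets, 18 with array weights, and 0 with no filter, no variance trend or only the 2 groups. For energy with ethanol (11), 19 were called with the floor at the background, 0 with no filter, 7 with no variance trend, 6 with only the 2 groups and 5 without the TEN-160 arrays. For both together (115), 51 were called with no filter and 311 with array weights. Leaving out 1 array gave 805 to 1288 calls for ethanol at 160 kcal, 0 to 11 at 220 kcal, 522 to 1068 for energy without ethanol, 0 to 53 with ethanol, 49 to 159 for both together, and 148 to 369 in the interaction. The titles share replicate numbers, and no label says that these mark a shared litter, batch or day. The deviations of same-numbered arrays of different groups correlated between -0.11 and 0.09 (median 0.04), with 0 of 18 pairs over 0.1. For differently numbered arrays the range was -0.15 to 0.19 (median -0.01), with 3 of 45 pairs over 0.1. With so few arrays, these values cannot show whether the numbers pair the arrays. With the replicate block, 6, 0, 3, 0, 0 and 2 probe sets of the 7 genes were called in the 6 comparisons, and over all probe sets 947 for ethanol at 160 kcal, 5 at 220 kcal, 886 for energy without ethanol, 2 with ethanol, 68 for both together and 314 in the interaction.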
